A study of Solenopsis invicta with 32 samples.

Results

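A group of 60 gene models, called members here, differed widely between the brains of spring-reared fire ant gynes although their typical brain level was similar in overwintered gynes. They were chosen from 16314 gene models by 4 limits on CPM (a gene's count divided by the summed gene counts of its library, times 1000000): a median of at least 5 CPM in spring-reared brains, a coefficient of variation (CV, the SD divided by the mean) of at least 0.8 over the 8 spring-reared brains, a ratio of the overwintered to the spring-reared brain median over 0.67 and under 1.5, and a CV under 0.75 over the 8 overwintered ovaries. The spread in spring-reared brains, the brain ratio and the low spread in overwintered ovaries are therefore properties of the choice and are given as descriptions. The 6080 genes that met the other limits but had a CV under 0.8 in spring-reared brains serve as comparison genes.

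The libraries came from gynes (young queens) of Solenopsis invicta taken from monogyne colonies, which have a single egg-laying queen, and the genotype of every gyne was SB/SB at the supergene that sets colony form. The study asked which genes go with plastic differences in the weight of queens, and compared 2 treatments, overwintered and spring-reared, in brain and in ovary, with 8 libraries in each of the 4 groups. Each of the 16 gynes came from a different colony and gave 1 brain and 1 ovary library, made with Smart-seq2, a low-input method, from 1.6 ng of RNA for a brain and 8.0 ng for an ovary. The colony codes of the treatments carry different prefixes, so what the prefix marks and the treatment cannot be told apart, and the labels used here give no ages.

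A gyne's brain integrates nutritional and social signals before mating and founding, and its hormonal output acts on the ovary, where nurse cells supply the growing oocytes. A brain dissected from an ant holds neurons, glia and tracheal cells and can carry adjoining glands or fat body, so one library mixes the RNA of several cell types. In bulk RNA, fewer cells of a type and less RNA per cell cannot be told apart. No file gives names for the gene models, and none of the 16314 was found in the RefSeq gene table (0 matches), so no member has a known function here, no sequence can be shown, and the organ labels could not be checked against marker genes.

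A library held between 9612985 and 23656547 gene counts. Spring-reared brains 3, 6 and 7, which recur below, held 12409245, 13987454 and 14293631 counts and 10315, 10249 and 9854 detected genes, within a range of 9854 to 10569 for the group. Brains 4 and 7 had the fewest detected genes of that group (9933 and 9854), and without both the same limits gave 73 genes, 33 of them among the 60. Multimapping reads made up 11.01% of reads in spring-reared brain 7 and 10.9% in brain 8, against 8.62% to 9.63% in the other 6. Even the member with the fewest counts had 712 over the 8 spring-reared brains. Counting error of reads alone would give a CV of at most 0.106 for any member. That bound leaves out variation that arises when low-input libraries are made. No brain had a repeat library, so such variation cannot be told apart from differences between gynes, and its share of the spread was not tested.

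Most members were of low to moderate abundance in brain. The spring-reared brain median ran from 5.13 to 1398 CPM, with a middle value of 10.4 CPM; 50 of the 60 members lay under 20 CPM and 4 lay at 100 CPM or more. Comparison genes had a middle value of 56.8 CPM. The CV of the members had a median of 0.933 and reached 1.79. The members nearest to the limit had CVs of 0.806, 0.806 and 0.807, and the genes just outside had 0.798, 0.793 and 0.787, so the choice cuts through a continuous range: 65 further genes lay between 0.7 and the limit.

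The spread came mostly from 1 or 2 high brains per gene, and not always from the same ones. In 51 of the 60 members at least 1 spring-reared brain stood at 3 times the member's median or more, in 37 of them a single brain and in 14 of them 2 brains. In 21 members at least 1 brain stood at 0.1 times the median or less, and 10 members had a brain without a single count. Spring-reared brain 6 was the highest for 16 members (26.7%, against 13.6% of comparison genes), brain 1 for 11, brain 8 for 10 and brain 7 for 8, whereas brain 5 was the highest for 2. Brain 7 was the lowest for 16 members (26.7%), a share near that of the comparison genes (22.1%). With all of brains 3, 6 and 7 left out, 29 of the 60 members still had a CV of at least 0.8 over the other 5, and 10 had one under 0.5. Without these brains the full set of limits gave 60 genes, only 16 of them among the 60 members.

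**Figure D1:**
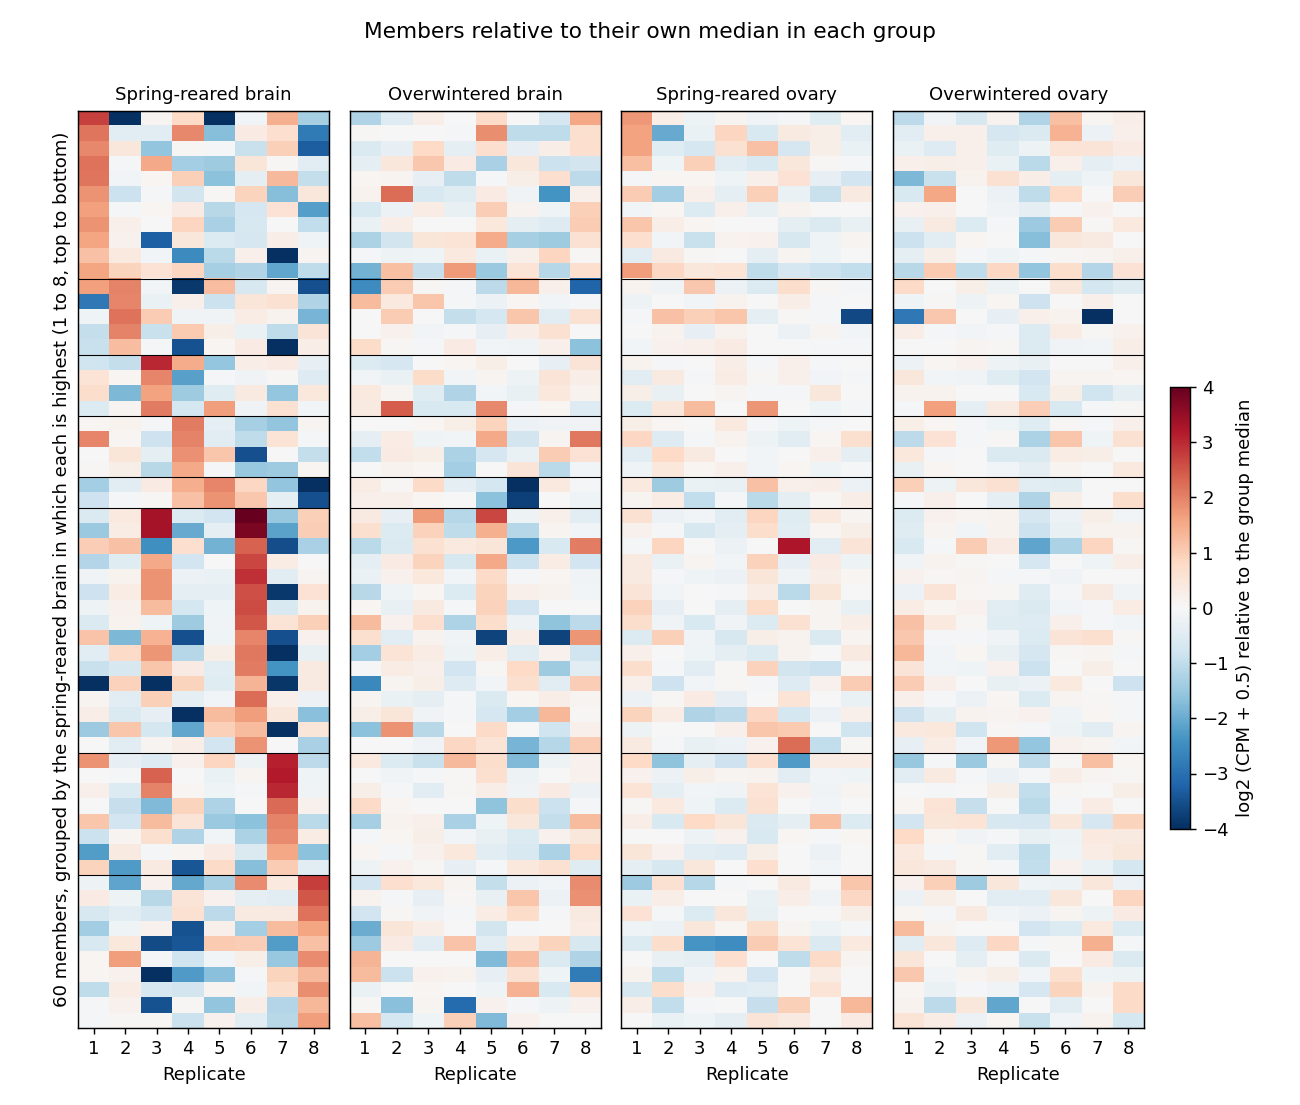
Level of each of the 60 members (rows) in the 8 replicates (columns) of the 4 groups, as log2 of (CPM + 0.5) relative to the member's own median in that group, with colours ending at -4 and 4; black lines separate members by the spring-reared brain in which they were highest. The strong colours of spring-reared brains are spread over all 8 libraries, with 16 members highest in brain 6 and 2 in brain 5, and the ovary panels are paler.

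SINVBB1_08170, the member with the highest CV in spring-reared brains (1.79), led a block of members that were high in the same brains. It ranged from 18.7 to 1571 CPM in spring-reared brains with a median of 54.5 CPM; brain 6 held 1571 CPM, brain 3 held 550 CPM and brain 8, the next, 105 CPM. The other 5 brains lay between 18.7 and 71.8 CPM. In overwintered brains the same gene ran from 20.3 to 287 CPM with a median of 45.0 CPM, and overwintered brains 5 (287 CPM) and 3 (147 CPM) stood above the rest, which reached at most 58.2 CPM. Its CV there was 1.08. In ovaries it was more even, from 108 to 275 CPM in spring-reared and from 94.7 to 178 CPM in overwintered gynes.

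Among the other 59 members, 5 followed SINVBB1_08170 over the spring-reared brains with a Spearman rho of at least 0.8, a limit set after the values were seen. All 5 were highest in brain 6, at 4.31 to 14.6 times their median, and above their median in brain 3 as well, at 2.21 to 10.7 times. The most abundant of them, SINVBB1_06713, singled out after its values were seen, stood at 1487 CPM in brain 6 and 679 CPM in brain 3 and between 145 and 216 CPM in the other 6. The second-ranked member by CV belongs to the block too, with 82.7 CPM in brain 6, 60.7 CPM in brain 3 and 0.909 to 11.6 CPM elsewhere.

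The block can be looked at again in overwintered brains, which took no part in defining it. There the rho of the 5 members with SINVBB1_08170 was positive in 5 of 5, from 0.238 to 0.833 with a median of 0.548, over 8 libraries. For the members outside the block the median rho was -0.0714. Of the comparison genes, 59 (0.970%) also reached a rho of 0.8 with it in spring-reared brains, and their median rho in overwintered brains was 0.0714. In 4 of the 5 block members, as in SINVBB1_08170, overwintered brain 5 was the highest; SINVBB1_06713 reached 302 CPM there, against 148 to 236 CPM in the other 7. The rise in overwintered brains was smaller, at 1.04 to 2.88 times the median in brain 5. These rhos describe 8 libraries of 9612985 to 17032204 gene counts and carry no test.

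A second pattern joined the 2 most abundant members. SINVBB1_02389 stood at 12587 CPM in spring-reared brain 7 and at 7117 CPM in brain 3, and between 1155 and 1499 CPM in the other 6. SINVBB1_14330, named because of this shared pattern after its values were seen, stood at 2418 CPM in brain 7 and 1198 CPM in brain 3, and between 206 and 347 CPM in the other 6. Brains 3 and 7 did not overlap with the rest for either gene. The ratio of SINVBB1_02389 to SINVBB1_14330 stayed between 4.03 and 6.58 over the 8 spring-reared brains while SINVBB1_02389 itself ranged from 1155 to 12587 CPM. A further member also followed SINVBB1_02389 (rho 0.81), at 8.65 times its median in brain 3 but 1.27 times in brain 7. Of the comparison genes, 46 (0.757%) reached a rho of 0.8 with SINVBB1_02389 in spring-reared brains as well. Their median rho with it in overwintered brains was 0.0952.

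In overwintered brains neither gene of the pair varied in this way. SINVBB1_02389 ran from 1306 to 2338 CPM (CV 0.207) and SINVBB1_14330 from 188 to 320 CPM (CV 0.180, the lowest of all members), with ratios from 4.74 to 7.75 and a rho of 0.381. In ovaries the ratios were higher, from 10.5 to 28.8, with SINVBB1_14330 at 33.7 to 108 CPM there. The pair made up 92.9% of the summed CPM of the members in spring-reared brain 7 and 76.6% in brain 3. Without the pair that sum was 1151 CPM in brain 7, within the 1017 to 2546 CPM of the libraries other than brain 6, which held 5230 CPM. Spring-reared brain 7 also had the highest share of multimapping reads, and whether reads of near-identical gene copies bear on the pair was not tested.

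**Figure D2:**
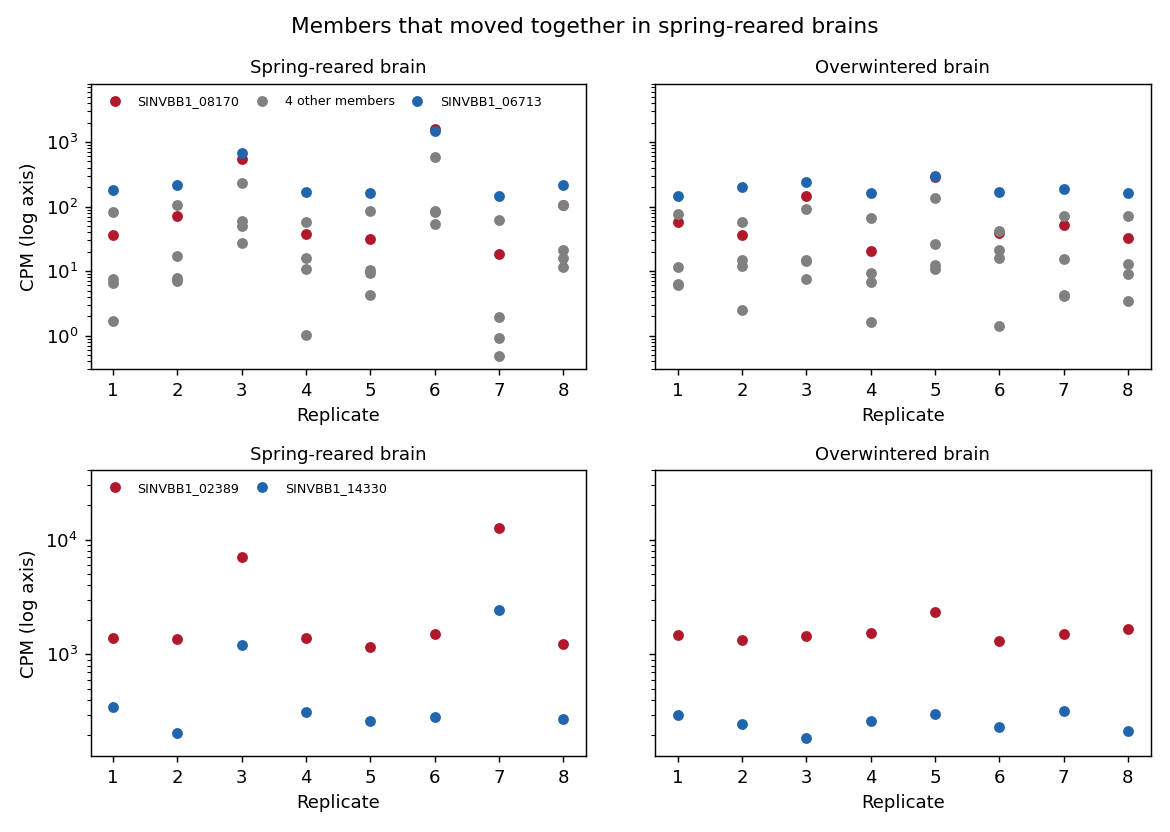
CPM (log axis) of SINVBB1_08170 and the 5 members that followed it (top) and of SINVBB1_02389 and SINVBB1_14330 (bottom) in each spring-reared and overwintered brain; each point is 1 library. The top members peak in spring-reared brains 6 and 3 and lean up in overwintered brain 5, and the bottom pair peaks in spring-reared brains 7 and 3 and is flat in overwintered brains except 2338 CPM of SINVBB1_02389 in brain 5.

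Sharing a top brain went with little shared movement in overwintered brains over the members as a whole, the block and the abundant pair included. Pairs of members that shared their highest spring-reared brain had a median rho of 0.405 there, which the grouping favours, and of 0.0476 in overwintered brains over 271 pairs. Pairs that did not share it had medians of -0.0714 and 0. In spring-reared ovaries the medians were 0.119 for sharing pairs and 0 for the others, and in overwintered ovaries 0.214 and 0.190.

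The members were also more variable than other genes in overwintered brains. Their CV over the 8 overwintered brains, which the choice did not use, had a median of 0.542, against 0.200 in the comparison genes, and 52 of 60 lay above the comparison genes' upper quartile of 0.275. It reached 0.8 in 12 of 60 members (20%) and in 16 of 6080 comparison genes (0.263%). Among genes under 20 CPM in spring-reared brains, where counts are fewer, these were 10 of 50 members (20%) and 11 of 1170 comparison genes (0.940%). The median CVs over overwintered brains in these genes were 0.562 and 0.302, nearer to each other than without the limit on level. The spread was nevertheless smaller than in spring-reared brains in 55 of 60 members, as the choice on high spring-reared values favours, and 2 members lay below the comparison genes' median.

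**Figure D3:**
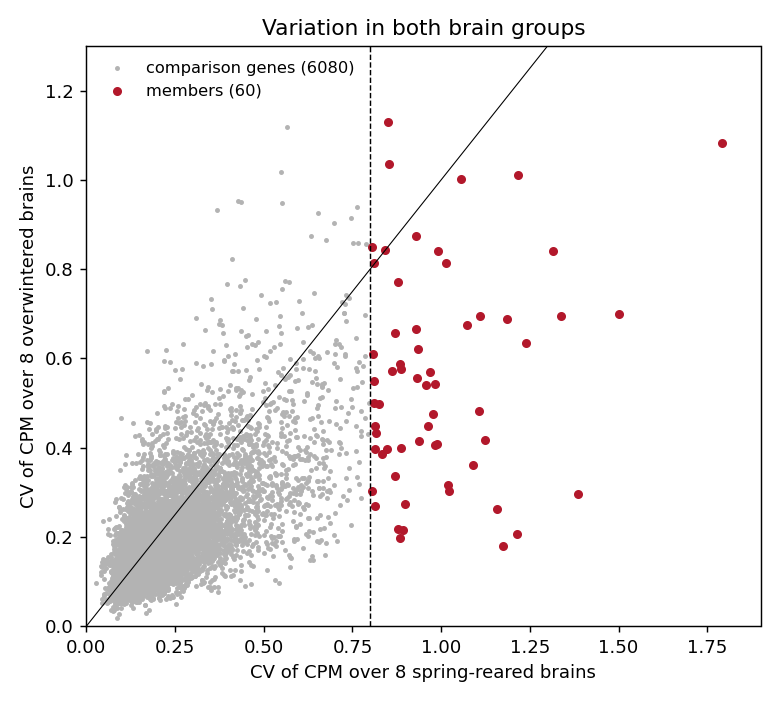
CV of CPM over the 8 spring-reared brains (x axis) against that over the 8 overwintered brains (y axis) for the 60 members and the 6080 comparison genes; the dashed line is the CV limit of 0.8 and the solid line marks equal values. Members spread from 0.180 to 1.13 on the y axis, and 12 of them lie at 0.8 or more.

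By their median CV, members and comparison genes alike were less variable in ovaries. Brain libraries were made from 1.6 ng of RNA and ovary libraries from 8.0 ng, so organ and RNA input cannot be told apart. Over the 8 spring-reared ovaries the CV had a median of 0.356 in members and 0.140 in comparison genes. The medians over overwintered brains were 0.542 and 0.200. Among genes under 20 CPM in spring-reared brains, the spring-reared ovary medians were 0.353 and 0.199. In spring-reared ovaries the CV reached 0.8 in 3 of 60 members (5.00%) and in 79 of 6080 comparison genes (1.299%). In overwintered brains these shares were 20% and 0.263%. At this high end the comparison genes were thus more variable in spring-reared ovaries. Over overwintered ovaries, where the choice set the upper limit, the medians were 0.354 and 0.183.

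Some members differed between gynes in the same way in brain and ovary. This was examined across the 16 gynes with the treatment means removed, by the Pearson correlation of log2(CPM + 2) between the organs of each gyne and 100000 random pairings within treatment, with p-values adjusted over 10336 genes. A positive correlation was called in 5 of 60 members (8.33%), against 1.18% of all genes tested and 0.641% of comparison genes. With ranks in place of log2 values the call was made for 2 members (3.33%, against 0.126% of all genes tested), SINVBB1_08485 and SINVBB1_06663. The median r was 0.200 in members and 0.0586 in comparison genes. The choice of members used the spread of the spring-reared brains and of the overwintered ovaries, and both enter this correlation. Members thus have larger differences between brains than comparison genes do, so their shares are not compared on equal terms. The gap between these shares was not tested. The comparison was added after the data had been seen.

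SINVBB1_08485, singled out for this reason, was the clearest case and lay just inside the CV limit at 0.806. Its brain level was 156 to 308 CPM in spring-reared gynes 1, 2, 3 and 4 and 24.4 to 51.6 CPM in the other 4. The ovaries of the same gynes held 151 to 352 CPM and 53.9 to 68.3 CPM. In overwintered gynes 2, 4, 6 and 8 the brains held 181 to 402 CPM and the ovaries 186 to 252 CPM, and in the other 4 the brains held 33.1 to 64.3 CPM and the ovaries 40.9 to 60.2 CPM. High and low gynes did not overlap in either organ, and all 16 gynes fell on the same side in both. No pooled correlation is given, since the values form separate clusters. The treatments had medians of 104 and 123 CPM in brain and of 109 and 123 CPM in ovary, spring-reared first (ovary log2 fold change -0.01, edgeR adjusted p = 0.991).

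SINVBB1_06663, also singled out, had a gap shared by both organs in spring-reared gynes. Spring-reared gynes 1 and 3 held 48.7 and 30.3 CPM in brain, against at most 14.6 CPM in the rest. Their ovaries held 91.4 and 77.4 CPM, against at most 54.1 CPM in the rest. In overwintered gynes the gap in ovary was not shared by brain. Overwintered ovaries stood at 52.4 to 53.9 CPM in gynes 1, 2, 3 and 6 and at 21.2 to 38.3 CPM in the rest. The brains of these gynes overlapped, at 7.91 to 22.7 and 3.98 to 13.3 CPM. Brain levels of SINVBB1_06663 ran from 3.58 to 48.7 CPM in spring-reared and from 3.98 to 22.7 CPM in overwintered gynes, with ovary levels of 26.0 to 91.4 and 21.2 to 53.9 CPM. The gyne highest in brain was highest in ovary among the spring-reared gynes (gyne 1, with 48.7 and 91.4 CPM). The gyne lowest in brain was lowest in ovary in both treatments (spring-reared gyne 5 and overwintered gyne 5). Over 16 gynes r was 0.91 (permutation p = 1e-05, which is the lowest value possible with 100000 pairings, adjusted p = 0.00738) and rho within treatments 0.90 (permutation p = 1e-05, adjusted p = 0.0207), and r was 0.84 without the 2 gynes farthest from the median. It was 0.98 in spring-reared and 0.77 in overwintered gynes. The pooled r and the spring-reared r include the gap between spring-reared gynes 1 and 3 and the rest.

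The other 3 called members were less abundant or less even. The third, with brain levels of 2.57 to 38.1 CPM, again split into gynes with ovary levels of 13.7 CPM or more and of 8.69 CPM or less, so no pooled r is given, and its call was lost with ranks (permutation adjusted p = 0.116). The fourth was nearly absent in spring-reared gynes 3 and 4 in both organs, with 0 and 0.0545 CPM in brain and 0.424 and 0.356 CPM in ovary, where the other 6 gynes held 0.770 to 13.0 and 2.69 to 9.06 CPM (r = 0.91, permutation adjusted p = 0.00886, and 0.85 without the 2 farthest gynes). Its rank correlation of 0.81 missed the threshold (permutation adjusted p = 0.114). The fifth peaked in spring-reared gyne 6 at 262 CPM in brain and 95.8 CPM in ovary, the highest of 8 in both organs (r = 0.81, permutation adjusted p = 0.0294, and 0.67 without the 2 farthest gynes). That call was lost with ranks (permutation adjusted p = 0.336), with TMM scaling (0.067) and without spring-reared gynes 4 and 7 (0.0872), whose brains had the fewest detected genes.

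**Figure D4:**
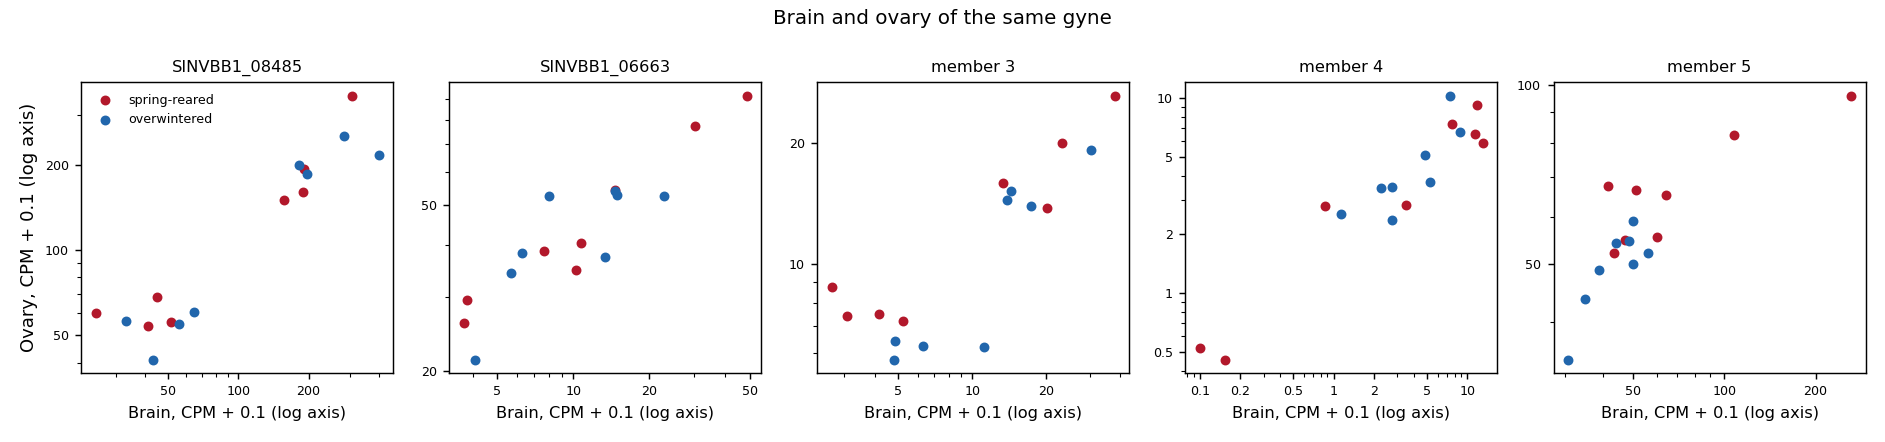
Brain level (x axis) against ovary level (y axis), both as CPM + 0.1 on log axes, of the 5 members called for a positive correlation; each point is 1 of 16 gynes, coloured by treatment. SINVBB1_08485 forms 2 separate groups of 8 gynes. SINVBB1_06663 has 2 spring-reared gynes above the other spring-reared gynes in both organs. The fourth member has 2 spring-reared gynes near 0 in both organs.

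The leading gene of each shared pattern was not called in this test. SINVBB1_08170 had a negative r of -0.57 between organs (rho -0.60), which missed the threshold after adjustment (permutation p = 0.0412, adjusted p = 0.5, and r = -0.46 without the 2 farthest gynes). The gyne of spring-reared brain 6, with 1571 CPM of this gene in brain, had 108 CPM in ovary, the lowest of its group. For SINVBB1_02389 the ovaries of spring-reared gynes 3 and 7 held 1773 and 1385 CPM, the highest and the fifth highest of the 8, while the other 6 ovaries ran from 1096 to 1691 CPM. Over all members, the gyne with the highest spring-reared brain also had the highest spring-reared ovary for 18 of 60 (30.0%), against 18.1% of comparison genes, and in overwintered gynes for 13 of 60 (21.7%), against 14.3%.

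Between treatments, the shares of members called in ovary by edgeR lay near those of all genes tested. Of 59 members that passed the filter on low counts, 3 rose in overwintered ovaries (5.08%, against 5.3% of all 9361 genes tested) and 4 fell (6.78%, against 5.28%), by edgeR's quasi-likelihood test at an adjusted p under 0.05. With DESeq2 the rises numbered 3 (5.08%, against 7.88% of all genes tested) and the falls 8 (13.6%, against 7.19%). The median log2 fold change was -0.06 in members and 0.03 over all genes tested. The limit on overwintered ovary spread leaves out members with uneven ovaries, which bears on this test. The rises numbered 5 without spring-reared ovary 6, and the falls 2 without overwintered ovary 3 or without spring-reared ovary 3.

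The largest rise was that of SINVBB1_12229. It stood at 17.9 to 54.6 CPM in spring-reared ovaries with a median of 28.3 CPM, and at 35.9 to 113 CPM in overwintered ovaries with a median of 52.9 CPM. The ranges overlapped, and 8 of 8 overwintered ovaries lay above the spring-reared median (log2 fold change 1.17 with an SE of 0.23, edgeR adjusted p = 0.00374). In brain the same gene lacked a single count in spring-reared brains 4 and 7 and in overwintered brains 5 and 7, and reached 21.7 and 21.6 CPM in the 2 groups. The 3 rises had log2 fold changes from 0.62 to 1.17.

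Among the falls, SINVBB1_02389, the most abundant member, had the largest change. Spring-reared ovaries held 1479 ± 235 CPM of it and overwintered ones 1007 ± 175 CPM (SD, n = 8). The log2 fold change was -0.50 with an SE of 0.14 (edgeR adjusted p = 0.0253), and 8 of 8 overwintered ovaries lay under the median of the other group. The call was lost without overwintered ovary 3 (edgeR adjusted p = 0.0504) or 4 (0.051) and without spring-reared ovary 1 (0.0504) or 3 (0.0504). Next came SINVBB1_05491, which ran from 103 to 173 CPM in spring-reared and from 78.2 to 115 CPM in overwintered ovaries (log2 fold change -0.49 with an SE of 0.09, edgeR adjusted p = 0.00225), also lower in 8 of 8. Its ranges overlapped through spring-reared ovary 3, the lowest of its group. In spring-reared brains SINVBB1_05491 varied from 1.94 to 34.3 CPM, with brain 1 the highest and brain 8 the lowest.

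The members held genes higher in brain and genes higher in ovary. In overwintered gynes 22 of 60 were higher in brain (36.7%, against 39.4% of the 9896 genes tested) and 22 were higher in ovary (36.7%, against 38%), by edgeR's quasi-likelihood test, and 16 passed in neither direction. Of the 6080 comparison genes, 2404 were higher in brain and 2400 in ovary. The choice limited the brain medians and the spread of overwintered ovaries, which bears on this test. Differences that passed the test and reached 4-fold were found for 7 members in the direction of brain (11.7%, against 17.1% of all genes tested) and for 10 in the direction of ovary (16.7%, against 10.6%). SINVBB1_14330 was higher in brain (259 ± 46.7 against 66.0 ± 14.4 CPM, SD, n = 8; log2 fold change 2.11 with an SE of 0.14, edgeR adjusted p = 1.56e-10), and SINVBB1_06713 was higher in ovary (log2 fold change of brain over ovary -1.46, edgeR adjusted p = 3.97e-09). SINVBB1_08170 had a brain-over-ovary log2 fold change of -0.68, which missed the threshold (edgeR adjusted p = 0.163), but passed with the gyne as a block (-1.21, edgeR adjusted p = 0.0159) and without overwintered brain 5 (-1.29, edgeR adjusted p = 0.00117).

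Low values in single spring-reared brains occurred in genes of either organ. One member, with 235 to 401 CPM in all 16 ovaries, held 9.46 to 21.1 CPM in the 8 overwintered brains and from 1.47 to 25.2 CPM in 7 spring-reared brains, with no count in spring-reared brain 7. A member with a spring-reared brain median of 40.1 CPM was instead higher in overwintered brain than in ovary (log2 fold change 1.39, edgeR adjusted p = 0.00121). It held 28.8 to 104 CPM in 5 spring-reared brains and 0, 0.363 and 2.24 CPM in brains 3, 1 and 7, against 6.66 to 84.6 CPM in overwintered brains and 6.97 to 26.3 CPM in the 8 spring-reared ovaries, so its gynes with almost none in brain had it in ovary.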

How the data were processed

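Brain and ovary libraries of 16 gynes were analysed from the authors' deposited counts of reads per gene model. Per the submitters' processing notes the tools were STAR 2.7.3a, Trim Galore 0.6.5 and edgeR; build and gene annotation: not given in the sources used here. Summary lines for reads outside genes, or with several or no positions, were left out of all totals; in spring-reared brains multimapping reads were 8.62% to 11.01% and reads in no gene 10.12% to 11.74%. The deposited CPM tables were not used. Whether counting used strand is not stated, so reads of overlapping genes cannot be told apart. A planned check of overlap with the other strand, the marker lists and the naming of genes could not be run, since the files used hold 1 count column and no names.

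CPM is the count over the summed gene counts of a library. Counts were tested with edgeR 4.0.16 in R 4.3.3 (TMM, filterByExpr, robust quasi-likelihood, Benjamini-Hochberg over all genes tested, threshold 0.05); the SE is the absolute log2 fold change over the square root of F. In brain the treatments were not tested, because the choice of members used that comparison. Organ correlations used random pairings of gynes within treatment. Alternatives were RLE factors, DESeq2 1.42.0, limma 3.58.1 voom, other filters, a threshold of 0.01, the replicate number as a block, and libraries left out. Members, lists and tests were chosen with earlier results of these data known. Named genes were the member with the highest CV, that with the highest median, and the largest called ovary rise and fall among members of at least 5 CPM, passing over a gene already named (SINVBB1_02389 among the falls); 4 more were singled out later.

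In overwintered gynes same-numbered libraries are the organs of 1 gyne, from the colony codes in the labels; their deviations from the group means correlated by 0.133 on average. Within a group, every pair of libraries differed by more than counting error (chi-square over degrees of freedom at least 18.7). On simulated data edgeR recovered 77.6% of 2-fold changes in the ovary simulation of 9361 genes and 62.7% in the organ simulation of 9896 genes, and the pairing test called 75% of 200 shared genes among 3000, with 6.25% false calls.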

Additional observations from a re-analysis of the deposited data

Results flagged for a closer look

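A library far from the rest was found in 10 of the 36 groups of 8 values examined. About 1 in 20 such groups would show one by chance if genes were picked without regard to their values. The named genes were picked for their spread, level, ovary change or pattern, so that rate does not apply here. In spring-reared brains, where the choice of members favours such values, brain 6 stood apart at 1571 CPM of SINVBB1_08170 (next 550 CPM) and 1487 CPM of SINVBB1_06713 (next 679 CPM), brain 7 at 2418 CPM of SINVBB1_14330 (next 1198 CPM) and brain 1 at 34.3 CPM of SINVBB1_05491 (next 16.02 CPM). In overwintered brains, brain 5 held 4261 CPM summed over the members (next 3409 CPM) and 2338 CPM of SINVBB1_02389 (next 1673 CPM). The sum includes SINVBB1_02389, so these flags are not independent. Overwintered brain 8 held 21.6 CPM of SINVBB1_12229 (next 9.57 CPM). In spring-reared ovaries, ovary 2 held 54.6 CPM of SINVBB1_12229 (next 33.1 CPM) and ovary 1 held 352 CPM of SINVBB1_08485 (next 193 CPM), and the brain of that gyne was also the highest of its group for SINVBB1_08485. Overwintered ovary 5 held the least SINVBB1_14330, at 33.7 CPM (next 63.8 CPM).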

How the results depend on the processing

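The number of members was 60 and stayed within 55 to 81 when a spring-reared brain was left out (73 without brains 4 and 7, 80 with TMM-scaled CPM), but was 20 with a CV limit of 1 and 33 with a median of at least 10 CPM. Without brain 7, 35 of the 60 met all limits. In ovary, 3 rises became 5 without the overwintered ovaries 1 and 5 and spring-reared ovary 6, 3 libraries that stood apart, and 2 to 5 with 1 library left out; 4 falls became 2 at a threshold of 0.01, 8 with DESeq2, 2 with the replicate block (3.39%, against 2.23% of all genes tested) and 2 to 5 with 1 library left out. Replicate numbers do not pair the ovaries (mean correlation -0.0502, 0 of 8 best with their own number). With that block the fall of SINVBB1_02389 missed the threshold (edgeR adjusted p = 0.092). Between organs, with the gyne as a block, members higher in brain numbered 20 and in ovary 24, and of the named genes only SINVBB1_08170 changed its call. Organ correlations were called in 2 members with ranks. With DESeq2 and limma voom, SINVBB1_08170 was higher in ovary than in brain (log2 fold change -1.16 and -1.15). No called result changed direction in these alternatives; fold changes that passed no test did: those of SINVBB1_08485 in ovary (0.38 without spring-reared ovary 1) and between organs (-0.04 without overwintered brain 4), SINVBB1_06663 in ovary (0.03 without spring-reared ovary 1) and SINVBB1_06713 in ovary (0.0028 without spring-reared ovary 5); the cause of these shifts was not tested.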
